A study of Mus musculus with 42 samples.

Results

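The 10 genes described here are Dusp4, Dusp5, Dusp6, Spry1, Spry2, Spry4, Spred1, Spred2, Spred3 and Etv5. All but Etv5 belong to the negative feedback arm of the ERK pathway, and Etv5 encodes a transcription factor whose level follows that pathway. The genes were taken by symbol from a table of 55471 gene entries of mouse hippocampal neurons. All 10 were found, and all 10 were among the 17892 genes that passed the filter on low counts. Gene counts came from 18 libraries of primary hippocampal neurons of NMRI mouse embryos, taken at embryonic day 16 and treated after 6 to 7 days in vitro. The 24 small RNA libraries of the same study were not used.

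Every group was cultured in the same way, from plating medium with horse serum to maintenance medium with B27 supplement. BDNF neurons (6 libraries) received brain-derived neurotrophic factor at 50 ng/ml for 20 min. CtrlEV and BDNFEV neurons (3 libraries each) were left for 24 h with small extracellular vesicles collected from cortical neurons, of vehicle-treated donors for CtrlEV and of donors given the same BDNF treatment for BDNFEV. Ctrl neurons (6 libraries) received vehicle. The labels give neither the time between the hippocampal BDNF pulse and lysis nor whether the libraries of a group are separate cultures, so that the p-values measure the spread between these libraries, which may be technical. Libraries are numbered in 6 sets, of which batch a holds set 1, batch b holds 2 and 3, batch c holds 4 and 5, and batch d holds 6. What a batch stands for is not stated in the labels, and EV libraries exist only in sets 1 to 3.

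BDNF binds the receptor kinase TrkB, which activates Ras and then the kinases RAF, MEK and ERK. ERK in turn raises transcription of its own inhibitors. These are dual-specificity phosphatases that strip the activating phosphates from ERK, and Sprouty and Spred proteins that act on the Ras and RAF steps. ETS transcription factors such as Etv5 also follow the activity of the pathway but are not inhibitors of it. In neurons the feedback by phosphatases, Sprouty and Spred proteins is known for limiting how strongly and how long a growth factor signal lasts.

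Libraries held 16274937 to 36835780 counts. Levels are CPM (counts scaled to a common library total), adjusted by TMM factors, they are not divided by transcript length, and so they are compared between libraries of 1 gene and not between genes. The summed level of 8 neuronal markers was 4488 to 5070 CPM in BDNF neurons, 4099 to 4876 CPM in CtrlEV, 4333 to 4975 CPM in BDNFEV and 4108 to 4846 CPM in Ctrl neurons. The cultures were mixed: 10 astrocyte markers summed to between 2368 and 3188 CPM over all libraries, and among 7 microglial markers Cx3cr1, P2ry12, Tmem119 and C1qa had at most 8 counts in any library. In bulk libraries a change in the number of cells of a type and a change of RNA per cell cannot be told apart.

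Direct BDNF treatment was followed by higher levels of most of these genes. In BDNF against Ctrl neurons, 8 of the 10 genes rose and 0 fell at an adjusted p under 0.05 in edgeR's quasi-likelihood test, where 7.36% of all genes tested rose and 6.26% fell. The median log2 fold change of the 10 genes was 0.39, against -0.00 over all genes tested. The 10 genes, and the other gene lists below, were chosen with earlier results of these data known. These counts and shares therefore describe the genes and do not test them as a set. The group mean was highest in BDNF neurons for all 10 genes. Dusp5, Dusp6 and Spred3 had the largest fitted folds, and Spred1 and Spred2 the smallest among the genes that rose.

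**Figure D1:**
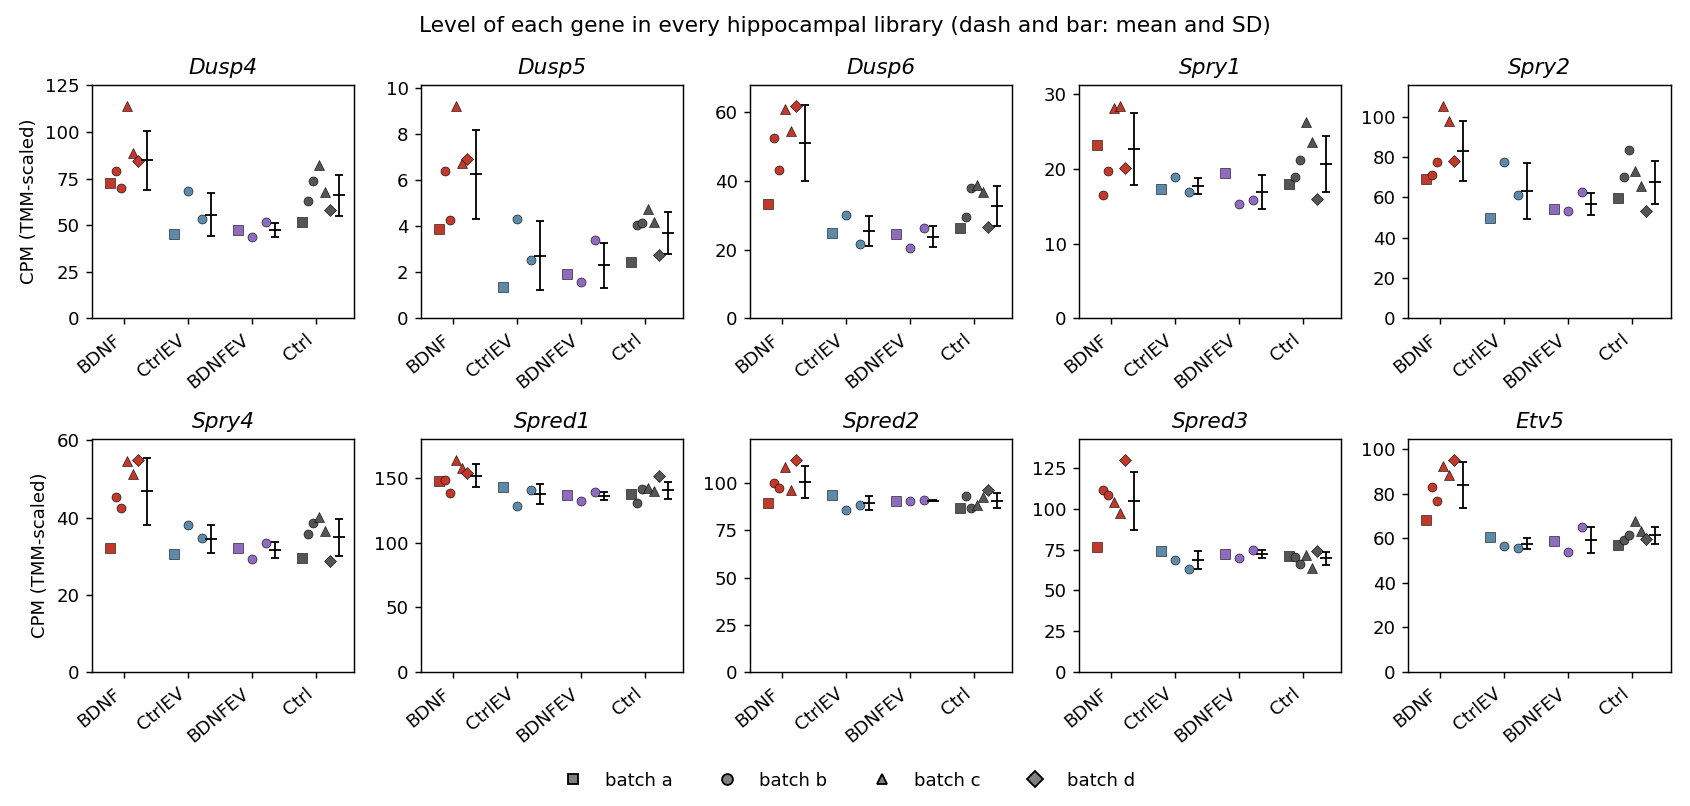
Level of each of the 10 genes in every hippocampal library, in TMM-scaled CPM (y axis, from 0), by group; symbols mark the batch, and the dash with its bar gives the mean and SD. For Spred3 and Etv5 every BDNF library lies above every Ctrl library, while for the other genes the BDNF and Ctrl libraries overlap.

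Dusp6 encodes the cytoplasmic phosphatase that is specific for ERK. Its lowest, median and highest levels were 33.2, 53.4 and 61.6 CPM in the 6 BDNF libraries. The CtrlEV libraries of sets 1, 2 and 3, an order kept for vesicle groups in what follows, had 24.7, 30.1 and 21.5 CPM, and the BDNFEV libraries 24.5, 20.4 and 26.3 CPM. The 6 Ctrl libraries had 26.4, 33.1 and 38.7 CPM as lowest, median and highest. The BDNF library of set 1 lay within the Ctrl range and the other BDNF libraries lay above it. The fitted fold was 1.57 (95% interval 1.28 to 1.92, edgeR adjusted p = 0.0066), and BDNF exceeded Ctrl in all 6 sets, with log2 ratios between 0.19 in set 3 and 1.21 in set 6.

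Dusp5, a nuclear phosphatase that also acts on ERK, was a low-count gene. It averaged 6.25 ± 1.95 CPM in BDNF neurons, 2.73 ± 1.50 CPM in CtrlEV, 2.30 ± 0.975 CPM in BDNFEV and 3.72 ± 0.913 CPM in Ctrl neurons (SD, n = 6, 3, 3 and 6). The BDNF libraries ran from 3.90 CPM in set 1 to 9.21 CPM in set 4, with a median of 6.58 CPM, against a Ctrl range of 2.45 to 4.75 CPM with a median of 4.10 CPM, so the groups overlapped. Dusp5 rose 1.69-fold (95% interval 1.28 to 2.24, edgeR adjusted p = 0.0134). The ratio was above 1 in all 6 sets, from a log2 value of 0.05 in set 3 to 1.34 in set 6, and without the BDNF or the Ctrl library of set 6 the adjusted p was 0.0602 to 0.0619.

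Dusp4, an inducible nuclear phosphatase of ERK and related kinases, had 70.01, 81.7 and 114 CPM as lowest, median and highest level in BDNF neurons. CtrlEV neurons had 45.4, 68.5 and 53.3 CPM, BDNFEV neurons 47.3, 43.8 and 51.5 CPM, and Ctrl neurons 51.8, 65.3 and 82.1 CPM as lowest, median and highest. The groups overlapped, and 3 of 6 BDNF libraries lay above every Ctrl library. The increase was 1.28-fold (95% interval 1.11 to 1.49, edgeR adjusted p = 0.0277), it was seen in 5 of 6 sets, and in set 3 the log2 ratio was -0.08. The call rested on single libraries: leaving out the BDNF library of set 1, 4 or 6 or the Ctrl library of set 1, 2, 5 or 6 gave adjusted p values of 0.0544 to 0.0995.

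The stretch before the Dusp5 start is shown because it was the only window among the genes with a promoter sequence that held a CArG box, the motif of serum response factor, a partner of ERK-regulated ETS factors. These are the 250 bases upstream of the start at chr19:53528895-53529144 on the plus strand (RefSeq, GRCm38.p6), with the matches in capitals.
Dusp5: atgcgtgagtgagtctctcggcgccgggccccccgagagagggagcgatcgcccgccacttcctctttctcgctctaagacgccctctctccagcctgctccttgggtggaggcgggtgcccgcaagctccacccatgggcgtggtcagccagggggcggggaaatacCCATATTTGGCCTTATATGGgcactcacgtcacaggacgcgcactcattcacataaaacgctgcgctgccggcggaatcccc
The capitals mark 2 adjacent CArG boxes, 82 to 73 and 72 to 63 bases before the start, and each reads as a match on both strands. Over 32851 RefSeq promoters of the same length, 1.47% held a CArG box. Both matches are descriptions of the sequence, and binding was not measured.

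Of the Sprouty genes, inhibitors of signalling from receptor kinases to Ras, Spry4 rose and Spry1 and Spry2 did not pass the test. Spry4 had 32.2, 48.2 and 55.0 CPM as lowest, median and highest level in BDNF neurons. CtrlEV neurons had 30.7, 38.1 and 34.7 CPM, BDNFEV neurons 32.1, 29.2 and 33.4 CPM, and Ctrl neurons 28.6, 36.1 and 40.2 CPM as lowest, median and highest. The BDNF library of set 1 was the only one below the Ctrl maximum. Spry4 rose 1.34-fold (95% interval 1.17 to 1.54, edgeR adjusted p = 0.00578), with log2 ratios above 0 in all 6 sets, between 0.12 and 0.94.

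Spry2 averaged 83.2 ± 14.9 CPM in BDNF neurons, 63.1 ± 14.0 CPM in CtrlEV, 56.8 ± 5.29 CPM in BDNFEV and 67.5 ± 10.7 CPM in Ctrl neurons (SD, n = 6, 3, 3 and 6). The BDNF and Ctrl ranges overlapped, and the fold of 1.23 (95% interval 1.05 to 1.44) had an edgeR adjusted p of 0.0813. The sets were not alike: the log2 ratio was 0.21, 0.03 and -0.11 in sets 1, 2 and 3 and 0.53, 0.58 and 0.55 in sets 4, 5 and 6. An interaction term over the 12 BDNF and Ctrl libraries gave the excess of sets 4 to 6 over sets 1 to 3. It was 0.51 ± 0.10 on the log2 scale (± standard error from the fit, as for later log2 values, edgeR adjusted p = 0.0459). In that direction 0.141% of 17680 genes tested were called. With the set number as a block in place of the batch, 19 genes in place of 37 were called in that test, and Spry2 was among them (adjusted p = 0.0409). Leaving out single libraries ended the Spry2 call in 9 of 12 cases (adjusted p 0.0713 to 0.153). Spry1 averaged 22.7 ± 4.81 CPM in BDNF neurons, 17.7 ± 1.09 CPM in CtrlEV, 16.9 ± 2.23 CPM in BDNFEV and 20.7 ± 3.78 CPM in Ctrl neurons, and its fold of 1.10 (95% interval 0.991 to 1.22) did not pass the test.

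Spred proteins carry a domain that recruits neurofibromin, a Ras-inactivating protein, to the membrane. Spred3 showed the largest change of the 3 genes. It had 76.5, 106 and 130.1 CPM as lowest, median and highest level in BDNF neurons, 74.3, 68.4 and 63.2 CPM in CtrlEV neurons and 72.2, 70.1 and 75.1 CPM in BDNFEV neurons, against 63.5, 71.02 and 74.0 CPM as lowest, median and highest in Ctrl neurons. BDNF and Ctrl libraries did not overlap, which 1.74% of all genes tested showed in this direction. The fold was 1.50 (95% interval 1.33 to 1.68, edgeR adjusted p = 0.000115). The log2 ratio was 0.10 in set 1 and between 0.54 and 0.81 in the other 5 sets.

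Spred1 and Spred2 moved far less. Spred1 averaged 152 ± 8.96 CPM in BDNF neurons, 138 ± 7.86 CPM in CtrlEV, 136 ± 3.23 CPM in BDNFEV and 141 ± 6.77 CPM in Ctrl neurons (SD, n = 6, 3, 3 and 6). Its fold was 1.08 (edgeR adjusted p = 0.0439), and the call was lost with the set number as a block (adjusted p = 0.0597) and without any 1 of 8 libraries. Spred2 averaged 101 ± 8.42 CPM in BDNF neurons, 89.4 ± 3.86 CPM in CtrlEV, 90.7 ± 0.386 CPM in BDNFEV and 90.8 ± 3.97 CPM in Ctrl neurons. Its fold was 1.11 (edgeR adjusted p = 0.0142), higher in all 6 sets, and the call was lost without the BDNF or the Ctrl library of set 6 (adjusted p 0.0544 to 0.0546).

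Spred3 and Spry2 are shown next because their windows held the octamer TGAATGAA or TCAATGAA. These are forms of the motif of Capicua, a repressor that ERK signalling releases from its targets. Each window is the 250 bases upstream of a RefSeq start in GRCm38.p6 on the minus strand, chr7:29168648-29168897 for Spred3 and chr14:105896820-105897069 for Spry2; the Spred3 start lies inside the annotated span of the gene, 29157783 to 29170070. Capitals mark the octamer on either strand.
Spred3: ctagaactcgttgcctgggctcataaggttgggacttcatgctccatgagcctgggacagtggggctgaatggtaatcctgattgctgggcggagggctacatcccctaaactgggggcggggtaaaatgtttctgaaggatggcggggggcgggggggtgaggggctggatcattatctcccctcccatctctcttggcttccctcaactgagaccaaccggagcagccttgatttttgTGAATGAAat
Spry2: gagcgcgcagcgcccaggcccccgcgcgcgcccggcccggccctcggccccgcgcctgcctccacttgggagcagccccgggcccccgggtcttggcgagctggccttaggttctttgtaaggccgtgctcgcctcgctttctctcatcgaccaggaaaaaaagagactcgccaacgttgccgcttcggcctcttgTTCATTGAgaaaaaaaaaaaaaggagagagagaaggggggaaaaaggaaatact
The octamer lay 10 to 3 bases before the Spred3 start and 54 to 47 bases before the Spry2 start, where it reads on the opposite strand. It was present in 1.70% of the 32851 promoters. Windows of 8 genes were searched on both strands, 2 of them for Etv5. The AP-1 motif TGANTCA, the CRE TGACGTCA and the ETS motif CCGGAA, present in 6.75%, 1.55% and 12.0% of promoters, had no match in any of the 9. No match says only that the letters searched are not in this window. The shorter GGAA, a part of that ETS motif, was not searched for, and the printed Dusp5 and Spry2 windows hold it.

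Etv5, an ETS activator whose level follows receptor kinase signalling, ranked highest of the 10 genes by p-value, at place 137 of 17892. It had 67.9, 85.5 and 95.2 CPM as lowest, median and highest level in BDNF neurons, 60.5, 56.7 and 55.6 CPM in CtrlEV neurons and 58.6, 53.6 and 65.2 CPM in BDNFEV neurons, against 56.7, 60.5 and 67.7 CPM as lowest, median and highest in Ctrl neurons. Every BDNF library lay above every Ctrl library, although the lowest BDNF library, that of set 1, cleared the highest Ctrl library only narrowly. The fold was 1.36 (95% interval 1.26 to 1.47, edgeR adjusted p = 3.5e-06), and the log2 ratio was between 0.26 and 0.67 in the 6 sets.

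**Figure D2:**
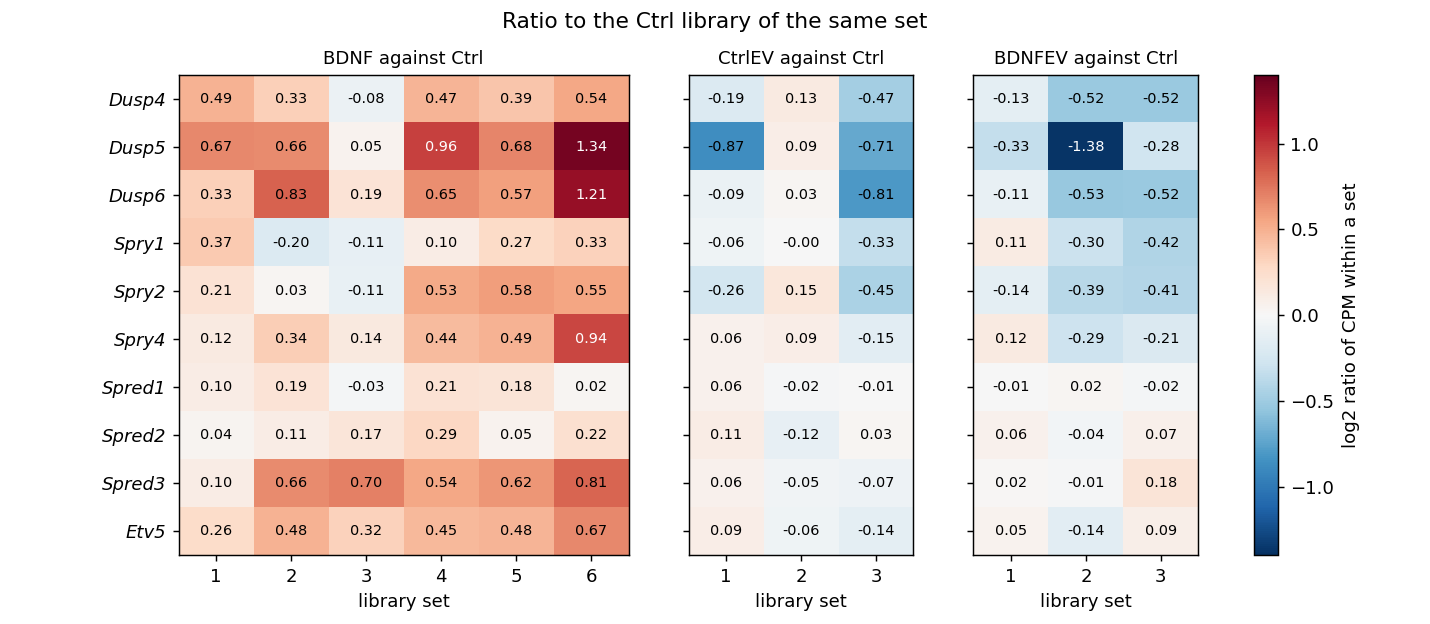
Log2 ratio of CPM to the Ctrl library of the same set, for each gene (rows) and set (columns), in BDNF, CtrlEV and BDNFEV neurons; red is higher and blue lower than Ctrl. Of the 10 genes, Dusp5, Dusp6, Spry4, Spred2, Spred3 and Etv5 are above 0 in all 6 sets after BDNF, and set 6 holds the highest ratio of Dusp4 (0.54), Dusp5 (1.34), Dusp6 (1.21), Spry4 (0.94), Spred3 (0.81) and Etv5 (0.67).

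Set 3 gave the lowest BDNF ratio for Dusp4, Dusp5, Dusp6, Spry2 and Spred1, and set 1 for Spry4, Spred2, Spred3 and Etv5. Higher values in all 6 sets were found for 6 of the 10 genes and for 7.36% of all genes tested. Within batch b, which holds sets 2 and 3, Spred3 (log2 fold change 0.68, adjusted p = 4.43e-06) and Etv5 (0.41, adjusted p = 0.00604) passed edgeR's test, while Dusp6 (0.52, adjusted p = 0.281), Dusp5 (0.37, adjusted p = 0.637), Spry4 (0.24, adjusted p = 0.11) and Dusp4 (0.13, adjusted p = 0.684) did not. Within batch c, sets 4 and 5, Dusp5 (0.83, adjusted p = 0.00919), Dusp6 (0.62, adjusted p = 0.000136), Spry2 (0.56, adjusted p = 0.000141), Spry4 (0.47, adjusted p = 0.00112), Spred3 (0.58, adjusted p = 0.000114) and Etv5 (0.47, adjusted p = 0.000335) passed. Dusp4 (0.43, adjusted p = 0.307), Spred1 (0.19, adjusted p = 0.0548), Spred2 (0.18, adjusted p = 0.144) and Spry1 (0.18, adjusted p = 0.233) did not pass edgeR's test within batch c. Nor did Spred1 (0.08, adjusted p = 0.569), Spred2 (0.14, adjusted p = 0.255), Spry1 (-0.14, adjusted p = 0.546) and Spry2 (-0.04, adjusted p = 0.923) within batch b. Batches a and d hold 1 library a group and have no test.

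Marker lists of other cell types were summed in the same libraries, and the sums were not tested. The 7 markers of progenitors and dividing cells summed to 359 to 517 CPM in BDNF neurons against 314 to 375 CPM in Ctrl neurons, with 3 markers higher and 0 lower at the same threshold. The 8 oligodendrocyte lineage markers summed to 952 to 1206 CPM in BDNF neurons against 855 to 1025 CPM in Ctrl neurons, with 3 higher and 2 lower. Astrocyte markers summed to 2368 to 3147 CPM in BDNF neurons against 2413 to 3188 CPM in Ctrl neurons, with 2 of 10 higher and 3 lower, and neuronal markers had 5 of 8 higher and 1 lower. Vascular and fibroblast markers summed to 76.7 to 135 CPM in BDNF neurons against 101 to 137 CPM in Ctrl neurons, with 2 of 8 tested higher and 1 lower, and microglial markers to 13.8 to 16.1 CPM against 12.5 to 17.7 CPM, with 0 of 2 tested called. Of all genes tested in this comparison, 7.36% were higher and 6.26% lower. The part of these markers in the changes of the 10 genes was not tested.

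After vesicle treatment none of the 10 genes passed the test in either direction. In CtrlEV against Ctrl neurons and in BDNFEV against Ctrl neurons, 0 of the 10 genes passed edgeR's test, where 0.0335% and 0.0224% of all genes tested did; both comparisons share the Ctrl libraries, and 1095 and 1305 genes had an unadjusted p under 0.05. DESeq2 also called 0 of the 10. The median log2 fold change of the 10 genes was -0.02 in CtrlEV and -0.08 in BDNFEV neurons, against -0.01 and -0.00 over all genes. Intervals were narrow for Etv5, at 0.907 to 1.12-fold in CtrlEV and 0.931 to 1.14-fold in BDNFEV neurons, and wide for Dusp5, at 0.560 to 1.32-fold and 0.470 to 1.12-fold.

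**Figure D3:**
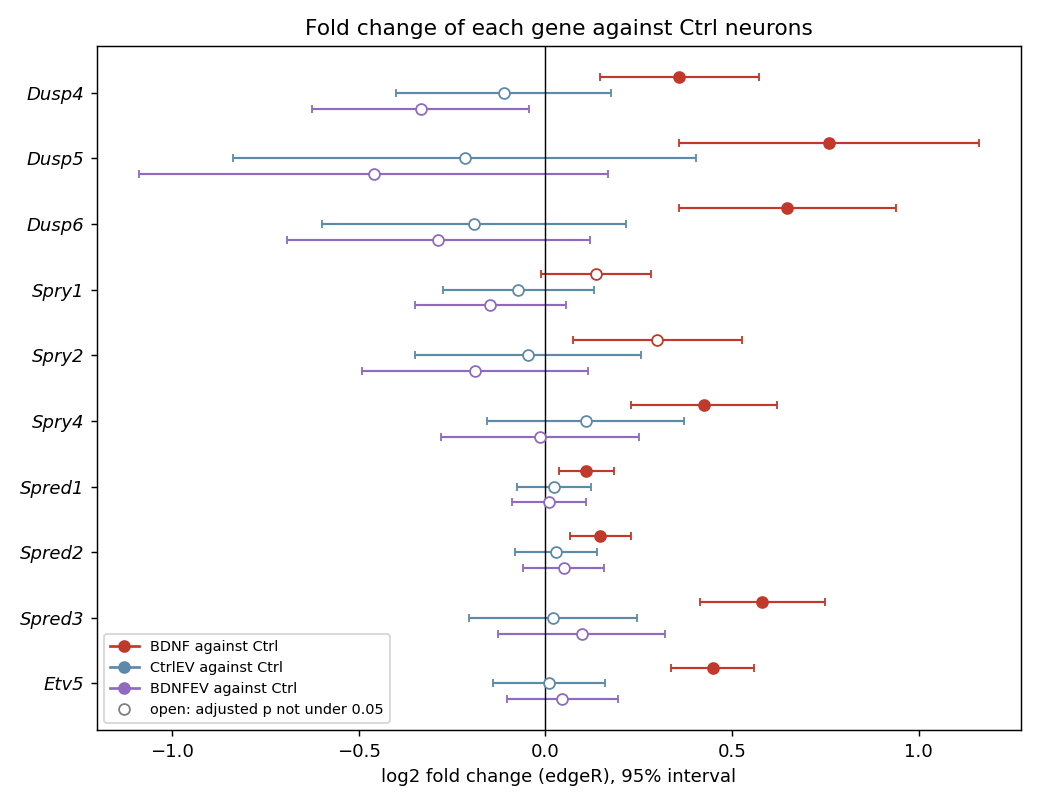
Log2 fold change of each gene against Ctrl (x axis, edgeR) with its 95% interval, for BDNF, CtrlEV and BDNFEV neurons; filled points have an adjusted p under 0.05. The filled points are those of BDNF for 8 genes, and the intervals of the vesicle groups include 0 for every gene except Dusp4 in BDNFEV neurons.

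The phosphatases had the lowest fitted values in BDNFEV against Ctrl neurons. The log2 fold change (± standard error) was -0.33 ± 0.13 for Dusp4, -0.46 ± 0.30 for Dusp5 and -0.29 ± 0.19 for Dusp6. The edgeR adjusted p values were 0.624, 0.811 and 0.821. The 3 BDNFEV libraries lay below all 6 Ctrl libraries for Dusp4 and Dusp6, as they did for 2.19% of all genes tested. The activity-driven immediate early genes were low in the same libraries: Fos, a subunit of AP-1, had 5.40 to 9.84 CPM in BDNFEV neurons, against 25.7 to 228 CPM in Ctrl neurons, and Npas4, a neuronal activity-dependent factor, 1.70 to 7.95 CPM against 18.0 to 256 CPM. CtrlEV libraries ran from 5.76 to 96.0 CPM for Fos and from 1.90 to 107 CPM for Npas4, so low values also occurred there. Neither gene passed the test (adjusted p = 0.346 for Fos and 0.3 for Npas4, edgeR), and their part in the phosphatase values was not tested.

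BDNFEV and CtrlEV neurons differ only in whether the vesicle donors had received BDNF. Of the 10 genes 0 passed, at a background of 0% of genes called by edgeR, where 1502 genes had an unadjusted p under 0.05 and DESeq2 called 2. Fitted folds lay between 0.845 for Dusp5 (95% interval 0.516 to 1.38) and 1.06 for Spred3 (0.893 to 1.25). The BDNFEV and CtrlEV libraries overlapped for Etv5 and Dusp6, with means of 59.1 ± 5.81 CPM in BDNFEV and 57.6 ± 2.59 CPM in CtrlEV neurons for Etv5 and of 23.7 ± 2.98 CPM in BDNFEV and 25.4 ± 4.30 CPM in CtrlEV neurons for Dusp6 (SD, n = 3).

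The direct and the vesicle treatments were also set against each other. In BDNF against BDNFEV neurons, 6 of the 10 genes were higher and 0 lower, where 4.87% of all genes tested were higher and 3.3% lower; this comparison uses the same BDNF libraries as that with Ctrl. Folds were 2.33 for Dusp5 (edgeR adjusted p = 0.0131), 1.91 for Dusp6 (0.00844), 1.62 for Dusp4 (0.00615), 1.40 for Spred3 (0.00939), 1.36 for Spry4 (0.042) and 1.32 for Etv5 (0.000805). BDNF and BDNFEV libraries did not overlap for Dusp4, Dusp5, Dusp6, Spry2, Spred3 and Etv5, as for 6.92% of all genes tested in this direction. The Spry4 call was lost with the set number as a block (adjusted p = 0.0637), and without the BDNFEV library of set 2 the calls that were left numbered 2. Markers of other cell types also differed here: of 7 for progenitors and dividing cells 3 were higher and 0 lower, of 8 for the oligodendrocyte lineage 3 higher and 1 lower, of 8 tested for vascular cells and fibroblasts 4 higher and 1 lower, of 10 for astrocytes 2 higher and 1 lower, and of 8 for neurons 4 higher and 1 lower. The progenitor sum was 359 to 517 CPM in BDNF neurons and 291 to 307 CPM in BDNFEV neurons, where it also lay below the 314 to 375 CPM of Ctrl neurons. The part of these markers in the result was not tested.

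A test of the difference itself, between BDNF against Ctrl and BDNFEV against CtrlEV, shares no library between both effects. The effects also differ in exposure, with 20 min of BDNF against 24 h of vesicles. This test called 1 of the 10 genes, Etv5, with a difference of 0.41 ± 0.09 on the log2 scale (edgeR adjusted p = 0.0161), where 1.76% of all genes tested were called in that direction. The call was lost without the CtrlEV library of set 1 or the BDNFEV library of set 2 (adjusted p 0.0694 to 0.0917). It was also lost in sets 1 to 3, the only ones with vesicle libraries (0.33, adjusted p = 0.126), within batch b (0.33, adjusted p = 0.25) and without a batch term (0.42, adjusted p = 0.235). All 10 genes had differences above 0, with a median of 0.47, and after Etv5 the lowest adjusted p values were 0.0612 for Spred3 (0.50 ± 0.14), 0.0869 for Spry4 (0.55 ± 0.16) and 0.0971 for Dusp4 (0.58 ± 0.18); DESeq2 called Spred3 (0.00439) and Spry4 (0.0123) as well.

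Other genes of the pathway moved in both directions after BDNF. Among 6 tested genes of the other MAPK phosphatases, 0 rose and 1 fell: Dusp2, a nuclear phosphatase of ERK, was at 1.03 ± 0.0835 CPM in BDNF neurons against 1.62 ± 0.251 CPM in Ctrl neurons (log2 fold change -0.63, edgeR adjusted p = 0.00337). Dusp1, an immediate early phosphatase of several MAP kinases, had a log2 fold change of -0.08 ± 0.21. The median of the list was -0.02. Of 13 tested genes in the list of other ERK feedback and target genes, 3 rose and 2 fell, or 23.1% and 15.4%. Of all genes tested 7.36% rose and 6.26% fell. Those of the list that rose were Vgf, a secreted neuropeptide precursor (2.04-fold, adjusted p = 0.00461), the Etv5 relative Etv4 (1.31-fold, adjusted p = 0.00035) and the cell cycle gene Ccnd1 (1.28-fold, adjusted p = 0.000227), all by edgeR. Il17rd and Errfi1, also of this list, did not pass (log2 fold changes 0.07 and -0.21, edgeR adjusted p = 0.386 for both). In the same list Etv1, the third gene of the Etv4 and Etv5 subfamily, and Myc fell (log2 fold changes -0.24 and -0.14, adjusted p = 0.0007 and 0.0251), and the median was 0.05.

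Of 32 genes of the cascade, from the receptor TrkB to the substrates of ERK, 3 rose and 2 fell, or 9.38% and 6.25%, near the 7.36% and 6.26% of all genes tested. The median log2 fold change was 0.01. Shc3, a neuronal adaptor of Trk receptors, rose 1.30-fold (edgeR adjusted p = 6.34e-06), and the ERK-activated kinase gene Rps6ka3 1.17-fold (adjusted p = 0.000416), as did the MEK gene Map2k1 (1.09-fold, adjusted p = 0.0252). The Ras gene Nras and the ETS factor gene Elk1, an ERK substrate, fell (log2 fold changes -0.14 and -0.16, adjusted p = 0.0075 and 0.0306). Of 13 Ras-inactivating proteins and other inhibitors, 3 rose and 0 fell, or 23.1% and 0%, against 7.36% and 6.26% of all genes tested. Those that rose were Rasal2, Rasa3 and Pea15a, by 1.15-fold, 1.10-fold and 1.09-fold (edgeR adjusted p = 0.00228, 0.0429 and 0.0329). In this list 12 genes had a log2 fold change above 0, and the median was 0.07. Of 12 immediate early genes 1 rose, Arc, a synaptic plasticity gene, 2.12-fold (adjusted p = 0.000907), and 0 fell; this share of 8.33% is near the 7.36% of all genes that rose. The others spread widely: Fos had 17.4 to 230.3 CPM in BDNF neurons and 25.7 to 228 CPM in Ctrl neurons, and the list's median of -0.17 lay below 0. In either vesicle group against Ctrl and between both vesicle groups, 0 genes of these 5 lists passed.

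**Figure D4:**
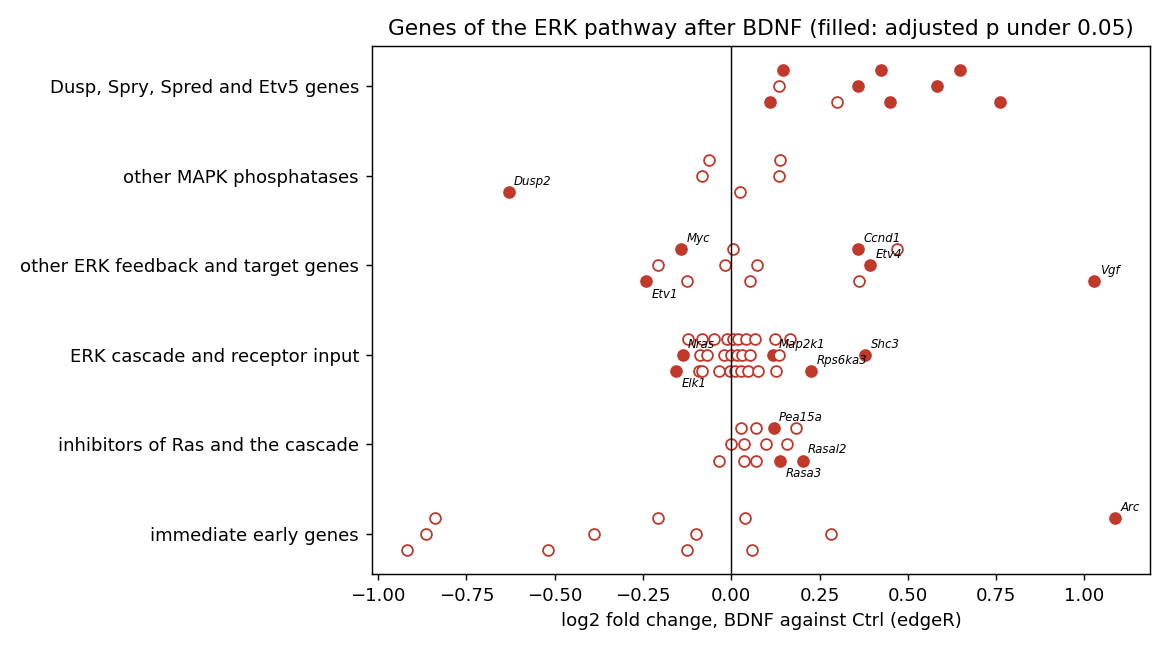
Log2 fold change in BDNF against Ctrl neurons (x axis, edgeR) of the 10 genes (top row) and of the tested genes of 5 other lists (rows). Filled points have an adjusted p under 0.05 and are named outside the top row. All 10 genes of the top row lie above 0. The other lists hold points on both sides of 0, although 12 of the 13 inhibitors of Ras and the cascade lie above it.

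The 10 genes also differed in how they varied from library to library. Over the 18 libraries, after removal of batch means, Etv5 and Spred3 had the highest pairwise Pearson correlation of log2 CPM (r = 0.959), followed by Dusp4 and Dusp5 (0.945) and by Dusp6 and Etv5 (0.918); the lowest was that of Spred2 and Spry1 (0.185). Among 13991 genes, the ones most like Etv5 were Spred3 itself, Synj2 (0.954) and Chst2 (0.954), and those most like Dusp6 were Apobec1 (0.949), Pcp4l1 (0.948) and Fam131a (0.944). Spry4 was most like Ddost (0.979), Snd1 (0.933) and Zyx (0.920), and Spred1 most like Xiap (0.916), Rgs17 (0.904) and Blm (0.895). These coefficients are descriptions over libraries that differ in group, since the treatment was not removed, and every pair shares library and depth.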

How the data were processed

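Gene counts were deposited by the authors as raw read counts per Ensembl gene, not normalised, for 18 hippocampal libraries; 55144 of 55471 entries had a symbol in RefSeq's GRCm38.p6 annotation. Per the labels' protocols, libraries were made from 500 ng of RNA with the TruSeq RNA kit v2, which does not mark strand, so genes on opposite strands cannot be told apart, and read as 50 bp single reads on a HiSeq2000. The tools named per the submitters' processing notes are cutadapt 1.8.1, CASAVA (1.8.2 and 1.8) and DESeq2 without a version, with the mm10 build; which aligner, counter and annotation were used is not given in the sources used here.

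All genes were fitted with edgeR 4.0.16 (R 4.3.3; quasi-likelihood test, robust, TMM, minimum count 10) over all 18 libraries with group and batch as terms, and p-values were adjusted by Benjamini-Hochberg over 17892 genes (threshold 0.05). The interaction was fitted on the 12 BDNF and Ctrl libraries. Intervals are 95% intervals from the fit; ratios within a set use CPM with a pseudocount of 0.5 reads. Depth was 16274937 to 36835780 counts. No 2 libraries of a group had identical counts, and the scripts were tested on simulated data. Same-numbered libraries deviated together from their group means (r 0.344 to 0.575 for BDNF and Ctrl, 0.205 to 0.588 for CtrlEV and Ctrl, 0.274 to 0.557 for BDNFEV and Ctrl, 0.180 to 0.548 for BDNFEV and CtrlEV, every pair over 0.1). Batch was not removed for these values, and same-numbered libraries share a batch. The values therefore cannot show pairing by set within batches b and c. By the library names each set also has its own sequencing lane. Taking the set number to pair libraries is an assumption. Alternatives were DESeq2 1.42.0, RLE factors, no filter, no batch term, the set block, fewer libraries and batches on their own.

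The 10 genes and the lists were chosen with earlier results of these data known. Named genes were all 10 members, at most 4 called genes of a list with the smallest adjusted p, and the 3 genes most like 1 member of each role with a mean of at least 2 CPM. Dusp1, Il17rd, Errfi1, Fos, Npas4, Myc and Elk1, named in the text or in the plot of the lists, were chosen after their values were seen. Promoter windows came from RefSeq for 8 genes.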

Additional observations from a re-analysis of the deposited data

Results flagged for a closer look

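Etv5 is listed because the effect of direct BDNF differed from that of BDNF given to the vesicle donors. The log2 change in BDNF against Ctrl neurons exceeded that in BDNFEV against CtrlEV neurons by 0.412 (edgeR adjusted p = 0.0161). Etv5 was above Ctrl in 6 of 6 BDNF libraries. Without the CtrlEV library of set 1 or the BDNFEV library of set 2 the adjusted p was 0.0694 to 0.0917, and in sets 1 to 3 alone, within batch b and without a batch term it was 0.126, 0.25 and 0.235.

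Spry2 is listed because its BDNF response differed between library sets: the log2 change in sets 4 to 6 exceeded that in sets 1 to 3 by 0.507 (edgeR adjusted p = 0.0459), at 37 genes called of 17680. The call was lost without any 1 of 9 of the 12 libraries (adjusted p 0.0713 to 0.153) and without a batch term (0.87), and with libraries left out the test called 0 to 208 genes. Sets 1 to 3 and sets 4 to 6 also differ in batch and, by the library names, in sequencing lane. Set, batch and lane therefore cannot be told apart in this contrast. Of the 10 genes, 0 had a library far enough from the others of its group to be listed.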

How the results depend on the processing

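Over 1520 combinations of gene, comparison and setting, 1399 kept their direction and side of the threshold or were uncalled throughout, 90 lost a call, 31 gained one and 0 changed the direction of a call; 56 uncalled values changed sign. Spred3 and Etv5 kept their call in BDNF against Ctrl neurons under all 27 settings, while the call was lost in 19 for Spred1, 15 for Dusp4, 8 for Spred2, 7 for Dusp5 and 2 each for Dusp6 and Spry4.

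In BDNF against Ctrl, 2437 genes were called, and 843 without a batch term, 1064 in sets 1 to 3, 833 within batch b and 1213 within batch c. Of the 10 genes 8 were called, against 4 without a batch term and 2 each in sets 1 to 3 and within batch b, and 5 to 9 with libraries left out (5 without BDNF 6, Ctrl 6, or both libraries of set 4 or of set 6). In CtrlEV against Ctrl, 6 genes were called, 38 without the filter, 2 without a batch term and 3 to 7 with libraries left out (3 without CtrlEV 2). In BDNFEV against Ctrl, 4 were called, 33 by DESeq2, 156 without the filter, 2 without a batch term, 269 with the groups compared alone, 12 in sets 1 to 3 and 114 within batch b. In BDNFEV against CtrlEV, 0 were called, 2 by DESeq2, 167 without the filter, 118 within batch b and 0 to 1 with libraries left out. In these 3 comparisons 0 of the 10 genes were called under any setting.

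In BDNF against BDNFEV, 1462 genes were called, 870 without a batch term, 611 within batch b and 704 to 1586 with libraries left out; of the 10 genes 6 were called, and 2 to 7 with libraries left out (2 without BDNFEV 2). For the difference of effects, 586 genes were called, 1150 without the filter, 51 without a batch term, 308 in sets 1 to 3, 147 within batch b and 240 to 860 with libraries left out; of the 10 genes 1 was called, 3 by DESeq2, 4 without the filter, 0 without a batch term, 0 in sets 1 to 3 and 0 to 3 with libraries left out. The interaction called 37 genes, 78 by DESeq2, 461 without the filter, 0 without a batch term, 19 with the set number as a block and 0 to 208 with libraries left out; of the 10 genes 1 was called, 2 without the filter, 0 without a batch term and 0 to 2 with libraries left out. With fewer libraries fewer degrees of freedom remain; the cause was not tested for the other changes.

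The set number as a replicate block changed no call of the 10 genes other than Spred1 in BDNF against Ctrl (adjusted p = 0.0597) and Spry4 in BDNF against BDNFEV (adjusted p = 0.0637). Leaving out both BDNF and Ctrl libraries of a set was chosen after seeing the data. In fits that leave 1 library in an arm, that library is assumed to vary like the others. Batch d holds 1 BDNF and 1 Ctrl library, so without either of them the batch term takes up the other. Leaving out BDNF 6, Ctrl 6 or both is thus nearly the same fit, and these are not separate checks. For Dusp5 in BDNF against Ctrl the log2 fold change was 0.616 in each. In the interaction fit the same holds for batch a. Dusp5 had the lowest counts of the 10 genes and the widest intervals.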
